A study of Mus musculus with 6 samples.

Results

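Collagens and laminins are the structural chains of the extracellular matrix, and the RNAs described here are those that TuBo mammary tumor cells make for them. The members were all genes of the deposited counts whose symbol is that of a collagen α chain (Col, a type number, a and a chain number) or of a laminin α, β or γ chain (Lama, Lamb or Lamc and a chain number). This gave 55 of the 21960 genes, 44 for collagens and 11 for laminins. Collagens are trimers of α chains wound into a triple helix, and fall into fibril-forming types, the network-forming type IV of basement membranes, types that sit on the surface of fibrils, and smaller families. Laminins are cross-shaped trimers of 1 α, 1 β and 1 γ chain that lie under epithelia and bind integrins and dystroglycan. Mammary epithelial cells rest on such a basement membrane, while the fibrillar types I and III are mainly products of fibroblasts.

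The TuBo line (Balb-NeuT in the labels) was established from a breast tumor in BALB/c-MMTV-NeuT mice, a strain in which an activated rat Her2/neu oncogene is driven by the MMTV promoter, so mock and p140Cap cells both carry this transgene. RNA-Seq was available for 3 mock libraries, labelled wt, and 3 libraries of cells overexpressing p140Cap, an adaptor protein encoded by Srcin1, from a retroviral pBabe-puro cDNA after selection with puromycin. The p140Cap cells were a pool of clones grown from single cells, and the sources used here do not give whether mock cells were cloned. The labels speak of mice in one place and of a cell line in another, and the samples are taken here as cells of that line. The comparison asks how the RNA of p140Cap cells differs from that of mock cells, and effects of p140Cap and of the clones picked cannot be told apart. The sources do not say whether the replicates were separate cultures, so p-values measure the spread between these libraries, which may be technical.

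Libraries held 33058719 to 75506562 reads in mock and 13770385 to 15364850 reads in p140Cap cells, so rare transcripts were measured less precisely in the latter. Srcin1 was at 1192, 509 and 552 reads in mock and 34371, 36989 and 30546 reads in p140Cap cells, as the labels state. Levels below are in CPM, that is, reads scaled to library size in TMM-adjusted units of 1e6 reads. The second library of each group stood apart for collagens and laminins. Of the 28 members with enough reads for the test, 22 had their lowest mock value in mock replicate 2 and 25 had their highest p140Cap value in p140Cap replicate 2, against 36.7% and 39.4% of all genes tested. All members were therefore also tested without these 2 libraries, and the values are given where they changed a call. The 20 calls made with all libraries were kept without them, and 3 members were called in addition.

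No reads in any library were found for 10 members. These were the fibrillar collagen genes Col1a2, Col3a1, Col5a2 and Col24a1, the collagen VI genes Col6a3, Col6a4 and Col6a5, the transmembrane collagen gene Col13a1, and the laminin genes Lama1 and Lamc3. Over the pooled libraries, a count of 0 allows up to 0.0201 CPM in mock and 0.0690 CPM in p140Cap cells (3 reads, counting error only). The other 45 members had reads, but 17 of them too few for the test. Collagens V and VI were close to absent from the RNA. Col5a1 had 0 reads in all mock and 1 in all p140Cap libraries, Col5a3 had 2 and 2, Col6a1 had 3 and 1, Col6a2 had 4 and 0, and Col6a6 had 1 and 0.

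Among the 17 rare members, Col14a1, a collagen of fibril surfaces, was the only one whose counting interval for the ratio of the groups left out 1. It had 65 reads in mock and 6 in p140Cap cells, a level 3.15 times higher in mock (95% exact binomial interval 1.37 to 8.89, counting error only). When no genes were filtered out, Col14a1 was also called lower (log2 fold change -1.68, adjusted p = 0.0101, edgeR), and it was the only rare member called in that fit.

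The other rare members gave no direction at this depth. Lama3, the α chain of laminin-332, had 10 reads in mock and 0 in p140Cap cells, where 2.91 p140Cap reads would correspond to an equal level. Col17a1, the transmembrane collagen of hemidesmosomes, had 17 and 2 reads, a ratio of 2.47 with a lower bound of 0.586. Col8a2, the partner chain of Col8a1, had 32 and 8 reads, a ratio of 1.16 (0.525 to 2.92), and Col4a3 had 19 and 11, a ratio of 0.502 (0.227 to 1.17). The intervals of these ratios held 1. Reads in mock and p140Cap cells were 16 and 4 for Col19a1, 10 and 6 for Col25a1, 8 and 4 for Col10a1, and 6 and 4 for Col26a1. They were 4 and 1 for Col23a1, 3 and 3 for Lama2, and 3 and 1 for Col22a1.

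Of the 28 members tested, 20 were called differentially expressed, where 71.1% of all 11800 genes tested were called (quasi-likelihood test of edgeR, Benjamini-Hochberg adjusted p below 0.05). They were split into 11 that rose (35.2% of all genes tested) and 9 that fell (35.9%) in p140Cap cells. Both counts are close to these background shares. Normalized values of the groups did not overlap for 19 of the 28, against 73.4% of all genes. All p140Cap libraries were higher for 11 of them (36.3% of all genes) and lower for 8 (37.2%). The median log2 fold change of the members was 0.11, while that of all genes tested was -0.00154. It was 0.0665 without p140Cap replicate 2 and 0.0326 without replicate 2 of both groups. With all libraries it was -0.01 for the 21 collagens and 0.43 for the 7 laminins. In these cultures, fewer cells with a transcript and less of it per cell cannot be told apart.

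Changes of at least 1 log2 unit were found for 5 members. Col12a1, Col8a1, Lamb3 and Col2a1 fell by that much, where 5.04% of all genes did, and Col20a1 rose, where 4.93% did. The increase of Col20a1 was under that limit without mock replicate 2 (0.97), without p140Cap replicate 2 (0.98) and without replicate 2 of both groups (0.92). Col18a1 passed it without replicate 2 of both groups (-1.01), Col4a6 without p140Cap replicate 3 (1.09) and Col1a1 with reads thinned to the smallest library (1.11). The summed level of all collagens was 3652 ± 171 CPM in mock and 4585 ± 204 CPM in p140Cap cells (SD, n = 3 each). The corresponding sums for laminins were 1814 ± 105 CPM and 2405 ± 130 CPM. Col11a1, Col4a1, Col9a1, Lama5 and Lamc1 together made up 59.2% of the members' reads in mock cells. All 5 lie toward the right end of the plot of levels by library.

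**Figure D1:**
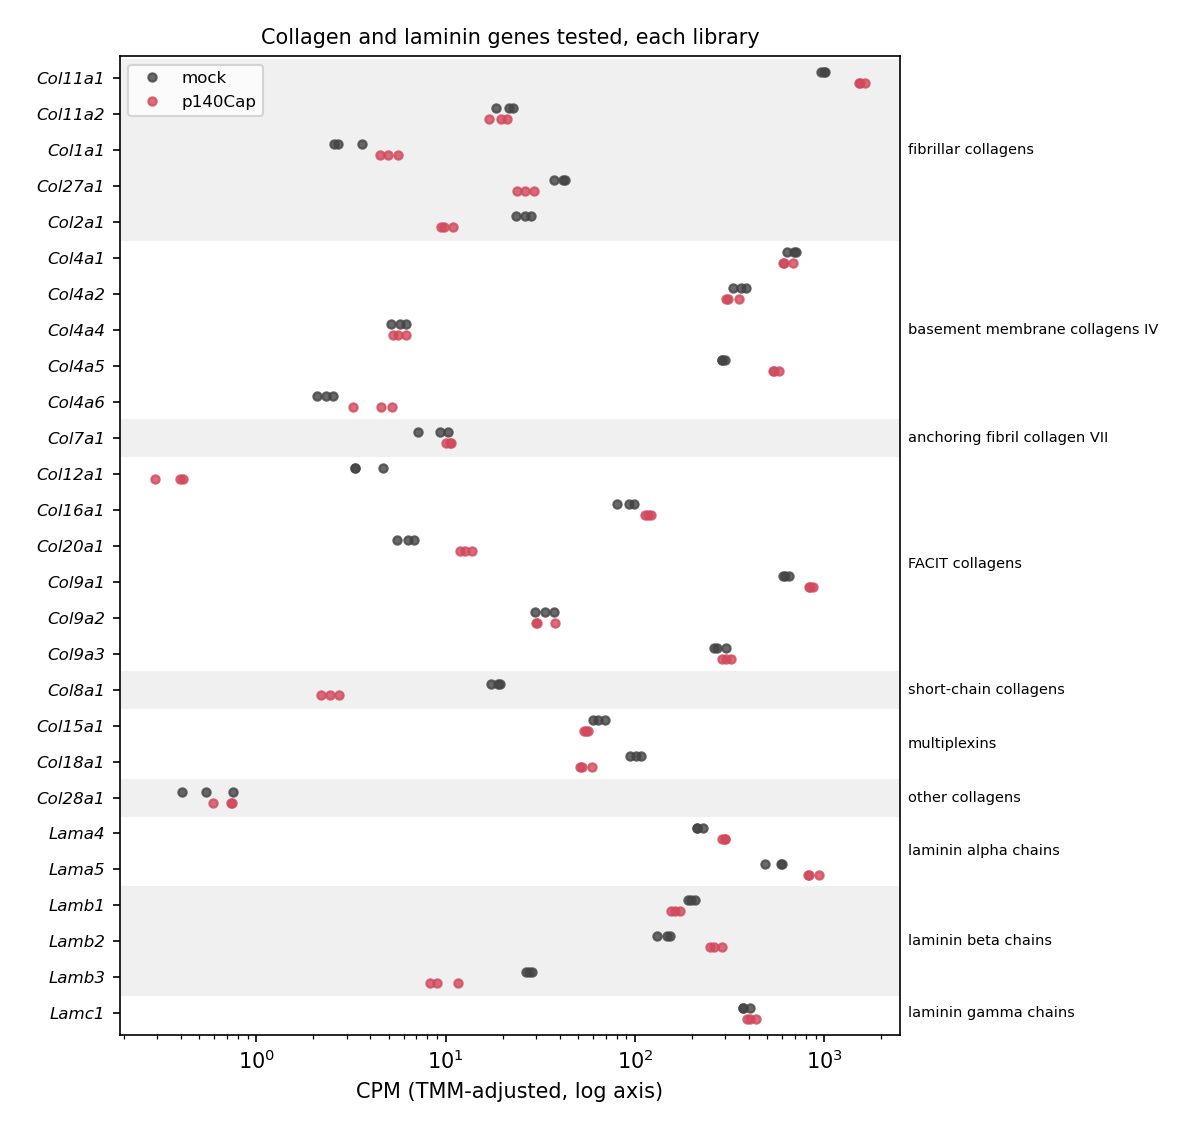
Level of 27 of the 28 collagen and laminin genes tested, in CPM on a log axis, in the 3 mock and the 3 p140Cap libraries (1 point a library), grouped by family. Col8a1, Col12a1, Lamb3 and Col2a1 are separated toward lower values in p140Cap cells, while Col4a5, Lamb2 and Col11a1 are separated toward higher values.

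Of the 11 fibrillar collagen genes, 5 were tested, 2 rose, 2 fell and 1 was not called, where 35.2% of all genes tested rose and 35.9% fell. Collagen fibrils of cartilage are built of collagen II and XI with collagen IX on their surface. Col11a1 (ENSMUSG00000027966; chromosome 3 of GRCm39, 113824134 to 114014367, plus strand), the α1 chain of collagen XI, had 76545, 38169 and 33628 reads in mock and 23427, 23939 and 20783 reads in p140Cap cells. This corresponds to 990 ± 26.6 CPM and 1567 ± 55.7 CPM (SD, n = 3 each), with each p140Cap library above each mock library. Its log2 fold change was 0.66 (adjusted p = 2.77e-09, SE 0.05). Col11a2, the α2 chain of the same trimer, was at 21.6, 18.4 and 22.7 CPM in mock and 19.5, 21.0 and 16.9 CPM in p140Cap cells. The groups overlapped, and it was not called (log2 fold change -0.12, adjusted p = 0.235), but was called lower without mock replicate 2 (-0.20, adjusted p = 0.0373) and without replicate 2 of both groups (-0.28, adjusted p = 0.0146).

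Col2a1 (ENSMUSG00000022483; chromosome 15, 97873483 to 97902689, minus strand), the chain of collagen II, moved the other way. Mock libraries held 2022, 942 and 942 of its reads, and p140Cap libraries 148, 160 and 129. Its level was 26.4, 23.7 and 28.3 CPM in mock and 9.75, 10.9 and 9.47 CPM in p140Cap cells, with no overlap. The log2 fold change was -1.38 (adjusted p = 8.63e-10, SE 0.09). Per length of the transcript, Col11a1 was 25.7 ± 1.63 times as high as Col2a1 in mock and 106 ± 4.05 times as high in p140Cap cells (SD, n = 3 each).

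Among the other fibrillar collagens, Col27a1 fell and Col1a1 rose. Col27a1, also a cartilage collagen, had 42.8, 37.2 and 41.6 CPM in mock and 23.7, 29.4 and 26.1 CPM in p140Cap cells. Its log2 fold change was -0.62 (adjusted p = 1.82e-06, SE 0.08). Col1a1, the α1 chain of collagen I, was rare, with 197, 107 and 121 reads in mock and 68, 82 and 68 reads in p140Cap cells. After scaling, every p140Cap library was above every mock library, and the log2 fold change was 0.80 (adjusted p = 0.000244, SE 0.16). Its usual partner Col1a2, the α2 chain, had no read, as stated above.

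Collagen IX is a trimer of 3 different chains that coats cartilage fibrils and belongs to the FACIT family, the collagens with interrupted triple helices that associate with fibrils. Col9a1 (ENSMUSG00000026147; chromosome 1, 24216691 to 24291765, plus strand) had the highest per-length level of all members in both groups. It was at 617, 601 and 649 CPM in mock and 834, 876 and 837 CPM in p140Cap cells, with no overlap (log2 fold change 0.45, adjusted p = 3.53e-07, SE 0.05). Col9a3 was at 279 ± 22.7 CPM in mock and 305 ± 17.2 CPM in p140Cap cells (SD, n = 3 each), and its groups overlapped. It missed the threshold (log2 fold change 0.13, adjusted p = 0.0596), which was passed without mock replicate 3 (adjusted p = 0.00543) and without p140Cap replicate 1 (0.0422).

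Col9a2 stood at 33.6 ± 3.92 CPM in mock and 32.8 ± 4.44 CPM in p140Cap cells (SD, n = 3 each), again with overlap (log2 fold change -0.03, adjusted p = 0.765, SE 0.09). Without replicate 2 of both groups it was called lower (-0.23, adjusted p = 0.0188). The 3 collagen IX chains were far from equal per length. Col9a1 RNA was 1.66 ± 0.0683 times that of Col9a3 in mock and 2.07 ± 0.0671 times in p140Cap cells. The corresponding ratios of Col9a1 to Col9a2 were 14.3 ± 1.14 and 20.0 ± 2.00 (SD, n = 3 each).

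The other FACIT genes were split. Col12a1 (ENSMUSG00000032332; chromosome 9, 79506268 to 79626135, minus strand), a collagen of fibril surfaces in tendon and other dense tissue, had the largest decrease of all members tested. Its reads numbered 359, 132 and 111 in mock and 6, 6 and 4 in p140Cap cells. Pooled over libraries, mock cells had 10.9 times its p140Cap level (95% exact binomial interval 6.68 to 19.3, counting error only). The model gave a log2 fold change of -3.39 (adjusted p = 3.02e-08, SE 0.30). Requiring 10 reads or more in each library removed this gene, and its log2 fold change lay between -3.57 and -2.68 under the alternatives that kept it.

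Col16a1 and Col20a1 rose. Col16a1 was at 92.8, 80.7 and 99.1 CPM in mock and 113, 122 and 118 CPM in p140Cap cells (log2 fold change 0.37, adjusted p = 7.57e-05, SE 0.06). Col20a1 (ENSMUSG00000016356; chromosome 2, 180628316 to 180660156, plus strand), whose function is little known, had 483, 221 and 227 reads in mock and 193, 202 and 162 reads in p140Cap cells. Its raw counts were lower in the smaller p140Cap libraries, but its level was 6.23 ± 0.634 CPM in mock and 12.8 ± 0.932 CPM in p140Cap cells (SD, n = 3 each). At a log2 change of 1.04 (adjusted p = 7.53e-08, SE 0.10), it had the largest increase of all members tested, with all libraries in the fit. An annotated gene overlaps Col20a1 on the same strand, and no source used here gives how reads of overlapping genes were shared out.

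**Figure D2:**
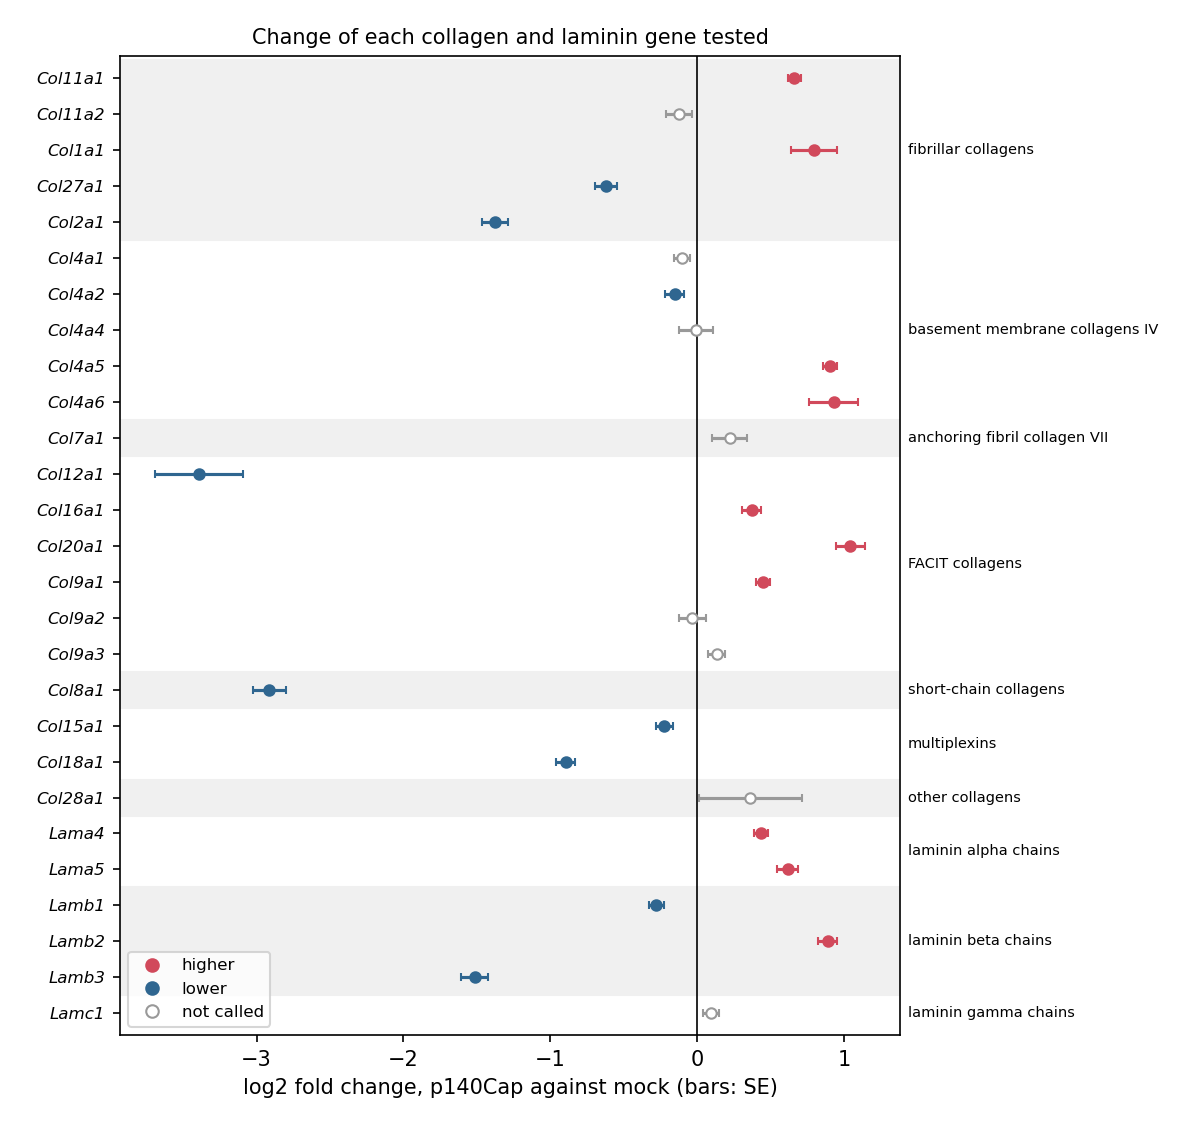
Log2 fold change of p140Cap against mock cells for 27 of the 28 collagen and laminin genes tested (points; bars are SE from edgeR's quasi-likelihood test, n = 3 libraries each). Filled points are the 19 genes shown that were called at an adjusted p under 0.05, with values from -3.39 for Col12a1 to 1.04 for Col20a1, and open points are the 8 not called.

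Collagen IV forms the sheet of the basement membrane. Its 6 genes lie as 3 head-to-head pairs, each pair transcribed away from a shared region, and the chains assemble as α1α1α2, α3α4α5 or α5α5α6. In TuBo cells, both members of the pair on chromosome 8 differed little between groups and both members of the pair on chromosome X rose. Col4a1 (ENSMUSG00000031502; 11248423 to 11362826 of chromosome 8, minus strand) was at 693, 638 and 710 CPM in mock and 616, 680 and 607 CPM in p140Cap cells. Its groups overlapped, and it was not called (log2 fold change -0.10, adjusted p = 0.111, SE 0.06). Col4a2 (ENSMUSG00000031503; 11362471 to 11499287, plus strand) was at 363, 328 and 384 CPM in mock and 309, 355 and 303 CPM in p140Cap cells.

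Although its groups overlapped as well, Col4a2 just passed the threshold (log2 fold change -0.15, adjusted p = 0.0459, SE 0.07). This call was lost without mock replicate 1 or 3, without p140Cap replicate 1 or 3, with all libraries thinned to the smallest total and with the replicate number as a block, with adjusted p between 0.0660 and 0.188 (edgeR). Without replicate 2 of both groups, Col4a1 (-0.20, adjusted p = 0.000908) and Col4a2 (-0.29, adjusted p = 0.000119) were both called lower. Col4a1 was also called without mock replicate 2 (adjusted p = 0.0308), without p140Cap replicate 2 (0.0116) and without the filter on low counts (0.0240). The per-length ratio of Col4a1 to Col4a2 was 1.94 ± 0.0479 in mock and 2.01 ± 0.0490 in p140Cap cells (SD, n = 3 each), with overlap between groups.

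Col4a5 (ENSMUSG00000031274; 140258354 to 140472231 of chromosome X, plus strand) had 22999, 11521 and 9639 reads in mock and 8183, 8441 and 7266 reads in p140Cap cells. Scaled levels were 293 ± 6.33 CPM and 549 ± 22.4 CPM (SD, n = 3 each), with each p140Cap library above each mock library. The log2 fold change was 0.91 (adjusted p = 7.99e-11, SE 0.05). Col4a6 (ENSMUSG00000031273; 139948399 to 140257072, minus strand) was rare, at 2.10, 2.34 and 2.55 CPM in mock and 5.21, 4.56 and 3.23 CPM in p140Cap cells. It rose with a log2 change of 0.93 (adjusted p = 0.000105, SE 0.17), close to the value of Col4a5. Per length, Col4a5 RNA was 128 ± 15.1 times that of Col4a6 in mock and 133 ± 31.6 times in p140Cap cells, so the pair kept its ratio within the spread of libraries while the level of both rose.

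In the third pair, Col4a4 was at 5.72, 6.19 and 5.17 CPM in mock and 5.27, 6.20 and 5.58 CPM in p140Cap cells, and Col4a3 had too few reads for the test. Col4a4 was not called (log2 fold change -0.01, adjusted p = 0.961, SE 0.12). The annotated spans of Col4a1 and Col4a2, and of Col4a3 and Col4a4, overlap at their 5′ ends on opposite strands. The sources used here do not give whether strand entered the counting, so reads from there are uncertain.

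The sequences at the starts of these pairs are shown because the fold changes of the members were close within each. They are from RefSeq on GRCm38.p6, whose promoter table held 40 of the 55 members. In them, capitals mark GC boxes (GGGCGG, either strand), CCAAT boxes (CCAAT, either strand) and TATA boxes (TATAAA, either strand). The starts of Col4a1 and Col4a2 are 21 bases apart, and the stretch from the Col4a2 start to the Col4a1 start on chr8:11312805-11312826, on the plus strand, holds 1 GC box. By these starts, both genes are transcribed through this stretch, so it is the first part of both transcripts and does not lie upstream of them. The starts of Col4a5 and Col4a6 are 1343 bases apart. For Col4a5, chrX:141475169-141475357 on the plus strand is given, which are the bases 250 to 62 before its start, since annotated exons cover those nearer to it. For Col4a6, chrX:141474077-141474326 on the minus strand is given, the 250 bases before its start.
Col4a1/Col4a2: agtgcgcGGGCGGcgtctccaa
Col4a5: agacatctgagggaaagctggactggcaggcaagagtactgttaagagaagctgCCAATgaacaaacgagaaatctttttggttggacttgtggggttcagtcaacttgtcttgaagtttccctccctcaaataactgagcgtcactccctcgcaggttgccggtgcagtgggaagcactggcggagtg
Col4a6: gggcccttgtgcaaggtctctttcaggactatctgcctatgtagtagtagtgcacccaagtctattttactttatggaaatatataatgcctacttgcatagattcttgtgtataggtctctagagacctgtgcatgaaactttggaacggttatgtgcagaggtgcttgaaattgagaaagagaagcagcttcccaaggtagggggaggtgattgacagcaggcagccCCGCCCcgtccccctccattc

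The printed Col4a5 stretch held 1 CCAAT box, and its whole window of 300 bases in the table held 1 GC box as well. The Col4a6 stretch held 1 GC box. No TATA box was found in any of the 3 printed stretches. The whole window of Col4a1 held 1 GC box and 1 CCAAT box, and that of Col4a2 held 3 GC boxes and 1 CCAAT box. Of all 32851 promoter windows of 300 bases in the table, 35.7% held a GC box, 37.4% a CCAAT box and 13.6% a TATA box, and these shares are for windows longer than the printed stretches. The matches are given as a description.

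The largest relative change among the remaining collagens tested was that of Col8a1 (ENSMUSG00000068196; chromosome 16, 57444621 to 57575100, minus strand), a short-chain collagen that forms networks under endothelia and in vessel walls. It had 1454, 690 and 642 reads in mock and 37, 40 and 30 reads in p140Cap cells. Its level fell from 18.5 ± 1.04 CPM to 2.46 ± 0.261 CPM (SD, n = 3 each), a log2 change of -2.91 (adjusted p = 2.51e-12, SE 0.11). Over pooled reads it was 7.57 times higher in mock cells (95% exact binomial interval 6.24 to 9.26, counting error only).

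Both multiplexins, basement membrane collagens whose C-terminal ends give rise to endostatin-like fragments, fell. Col18a1 (ENSMUSG00000001435; chromosome 10, 76888012 to 77002390, minus strand), the source of endostatin, was at 101, 94.2 and 108 CPM in mock and 52.4, 59.4 and 51.1 CPM in p140Cap cells. Its log2 fold change was -0.90 (adjusted p = 2.96e-09, SE 0.06). For Col15a1 the levels were 64.0, 60.2 and 69.6 CPM in mock and 56.4, 55.3 and 54.1 CPM in p140Cap cells (log2 fold change -0.22, adjusted p = 0.00273, SE 0.06). The groups overlapped for neither gene.

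Col7a1, the collagen of the anchoring fibrils that tie basement membrane to stroma, was at 8.92 ± 1.61 CPM in mock and 10.4 ± 0.337 CPM in p140Cap cells (SD, n = 3 each), with overlap between the groups. It was not called (log2 fold change 0.22, adjusted p = 0.109, SE 0.12), except without mock replicate 3 (0.30, adjusted p = 0.0302). Col28a1, with 79 reads in mock and 30 in p140Cap cells, was not called (log2 fold change 0.36, adjusted p = 0.360, SE 0.35).

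Laminin genes changed by chain. Of the 5 α chain genes, only Lama4 and Lama5 had enough reads, and both rose. Lama5 (ENSMUSG00000015647; chromosome 2, 179818166 to 179867712, minus strand), the α chain of laminin-511, a main laminin of epithelial basement membranes, was at 594, 486 and 601 CPM in mock and 816, 934 and 827 CPM in p140Cap cells. Its log2 fold change was 0.62 (adjusted p = 1.04e-06, SE 0.07). Lama4, the α chain of laminin-411, best known from vessels, was at 230, 212 and 212 CPM in mock and 298, 297 and 290 CPM in p140Cap cells. It rose with a log2 change of 0.43 (adjusted p = 5.2e-07, SE 0.05). In both genes each p140Cap library was above each mock library.

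The 3 β chain genes moved in different directions. Lamb2 (ENSMUSG00000052911; chromosome 9, 108356935 to 108367729, plus strand) had 11272, 5170 and 5080 reads in mock and 3946, 4213 and 3392 reads in p140Cap cells. It rose from 143 ± 11.8 CPM to 265 ± 19.5 CPM (SD, n = 3 each), a log2 change of 0.89 (adjusted p = 2.66e-09, SE 0.06). Lamb1 (ENSMUSG00000002900; chromosome 12, 31315030 to 31379658, plus strand), which can take the same place in a trimer, was at 206, 190 and 198 CPM in mock and 163, 173 and 154 CPM in p140Cap cells. Its decrease had a log2 fold change of -0.28 with an SE of 0.05 (adjusted p = 0.000158).

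Lamb3 (ENSMUSG00000026639; chromosome 1, 192890007 to 193027705, plus strand), the β chain of laminin-332, the laminin of hemidesmosomes, had 2200, 1063 and 913 reads in mock and 137, 171 and 113 reads in p140Cap cells. Its level was 27.6 ± 1.03 CPM in mock and 9.66 ± 1.76 CPM in p140Cap cells (SD, n = 3 each). At a log2 change of -1.52 (adjusted p = 5.12e-10, SE 0.09), it had the largest decrease among the laminins tested. Annotated genes overlap the span of Lamb3 on both strands. Such genes on the same strand, among them microRNA genes, also lie within or across the spans of Col4a1, Col4a5, Col4a6, Col7a1, Col15a1, Col27a1, Lama4, Lama5 and Lamc1, so the uncertainty given for Col20a1 holds for all of these.

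Lamc1 (ENSMUSG00000026478; chromosome 1, 153094597 to 153208774, minus strand), the γ chain of most laminins, was at 405, 370 and 374 CPM in mock and 404, 436 and 388 CPM in p140Cap cells. These values overlapped, and Lamc1 was not called (log2 fold change 0.10, adjusted p = 0.122, SE 0.05).

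To set chains beside each other, levels were divided by the length of each gene's canonical transcript. On this scale, Lamb1 made up 52.9% ± 1.25 of the β chain RNA in mock and 36.6% ± 0.543 in p140Cap cells. The share of Lamb2 was 39.4% ± 1.48 in mock and 61.2% ± 0.314 in p140Cap cells, and that of Lamb3 was 7.69% ± 0.233 and 2.24% ± 0.249 (SD, n = 3 each). Lamb2 was thus below Lamb1 in mock and above it in p140Cap cells. With the union of all annotated exons as length, Lamb2 was above Lamb1 in both groups, with shares of 51.8% in mock and 72.7% in p140Cap cells, so the order in mock cells depends on the length taken, while the move toward Lamb2 does not.

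Lama5 and Lama4 made up nearly all α chain RNA, with shares of 57.5% ± 2.59 and 42.5% ± 2.59 in mock and 60.5% ± 1.67 and 39.4% ± 1.67 in p140Cap cells. With union exon lengths the share of Lama5 was 77.8% in mock and 79.9% in p140Cap cells. Lama3 was at 0.00645% ± 0.00392 in mock cells and had no read in p140Cap cells. The per-length level of Lama5 was 1.01 ± 0.102 times that of Lamc1 in mock and 1.45 ± 0.0467 times in p140Cap cells. For Lamb1 the corresponding ratios to Lamc1 were 0.708 ± 0.0136 and 0.546 ± 0.00422 (SD, n = 3 each).

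For collagen IV, Col4a1 held 51.0% ± 0.302 of the RNA in mock and 41.9% ± 0.117 in p140Cap cells. The share of Col4a5 was 22.2% ± 1.07 in mock and 36.6% ± 0.684 in p140Cap cells (SD, n = 3 each), and that of Col4a2 was 26.3% ± 0.809 and 20.9% ± 0.574. Col4a3, Col4a4 and Col4a6 each made up under 1% of collagen IV RNA in both groups.

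**Figure D3:**
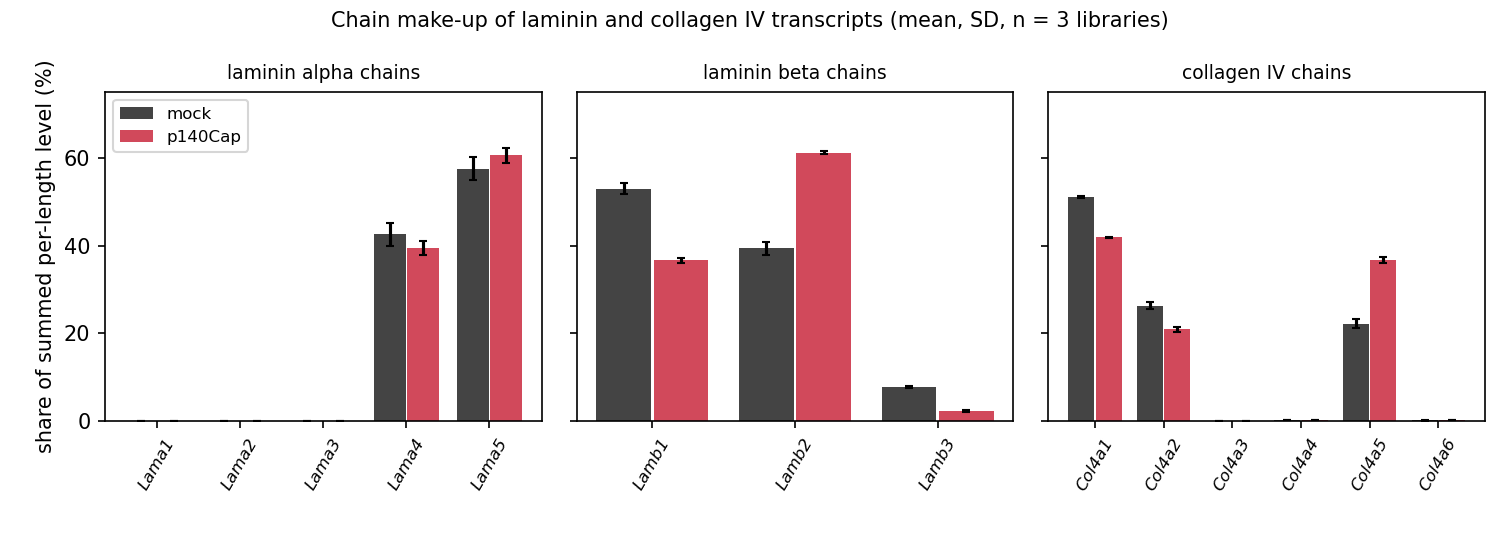
Share of each chain in the summed per-length RNA level of laminin α and β chains and of collagen IV, in percent, for mock and p140Cap cells (bars are means, error bars SD over 3 libraries each, lengths of canonical transcripts). In p140Cap cells Lamb2 rises from 39.4% to 61.2% of β chain RNA and Col4a5 from 22.2% to 36.6% of collagen IV RNA.

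Ratios of 2 chains in each library were compared for 11 pairs chosen as known partners or alternatives, and groups did not overlap for 8 of them. Of all single genes tested, 73.4% did not overlap, which is not a share for ratios. For Lamb2 to Lamb1 and Col11a1 to Col2a1 the outcome was fixed beforehand, since both single genes were already separated, in opposite directions. In each of the 8 pairs the exact permutation test on 3 against 3 libraries gave p = 0.1 (two-sided, 0.138 after adjustment over the 11 pairs), the smallest it can give. The ratio of Lamb2 to Lamb1 was 0.734, 0.704 and 0.794 in mock and 1.65, 1.71 and 1.66 in p140Cap cells. That of Col4a5 to Col4a1 was 0.437, 0.457 and 0.411 in mock and 0.883, 0.853 and 0.887 in p140Cap cells. Overlap was found for Col4a1 to Col4a2, Col4a5 to Col4a6 and Lama5 to Lama4.

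Genes that serve the collagens and laminins were taken from lists of collagen biosynthesis, basement membrane partners, and receptors. Of the 31 collagen biosynthesis genes, 21 were tested, 7 rose, 5 fell and 9 were not called, where 35.2% of all genes tested rose and 35.9% fell. The 3 with the largest increase modify the collagen chain. P3h3, a homolog of prolyl 3-hydroxylase, was at 2.89 ± 0.146 CPM in mock and 7.56 ± 0.598 CPM in p140Cap cells (log2 fold change 1.39, adjusted p = 1.63e-08). Plod1, a lysyl hydroxylase, was at 64.4 CPM and 158 CPM on average (1.30, adjusted p = 1.74e-11), and P3h1, a prolyl 3-hydroxylase, at 1.61 ± 0.102 CPM and 3.94 ± 0.626 CPM (1.30, adjusted p = 1.81e-06; SD, n = 3 each).

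The prolyl 4-hydroxylase subunits P4hb (0.93, adjusted p = 4.97e-11) and P4ha1 (0.64, adjusted p = 2.92e-09), the lysyl hydroxylase Plod2 and the coat protein Sec23a rose as well. Serpinh1, the collagen chaperone Hsp47, was not called (log2 fold change -0.07, adjusted p = 0.304). The 3 largest decreases were those of Bmp1, which cleaves the C-propeptide of procollagen (-0.68, adjusted p = 6.99e-09), Adamts14, which cleaves the N-propeptide (-0.64, adjusted p = 3.67e-06), and Crtap, the partner of P3h1 (-0.36, adjusted p = 0.000177). The median log2 fold change of the 21 genes was -0.01.

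Of the 12 basement membrane partners, 7 were tested, 2 rose and 4 fell (35.2% and 35.9% of all genes tested), with a median of -0.28. Fn1 (fibronectin), which binds collagens and integrins, had 483, 195 and 173 reads in mock and 1, 2 and 2 reads in p140Cap cells. Its log2 fold change was -5.55 (adjusted p = 2.03e-10, SE 0.32), and over pooled reads it was 49.5 times higher in mock cells (95% exact binomial interval 21.1 to 153, counting error only). Smoc1, a matricellular calcium-binding protein (-0.71, adjusted p = 5.49e-06), and Tinagl1 (-0.35, adjusted p = 9.62e-05) fell by less, as did Agrn (agrin, -0.28, adjusted p = 0.000411). Ntn4, a netrin that binds laminin γ chains, rose from 0.429 ± 0.124 CPM to 2.94 ± 0.314 CPM (SD, n = 3 each; 2.85, adjusted p = 1.3e-08). Pxdn, the peroxidase that cross-links collagen IV, rose from 160 ± 6.91 CPM to 234 ± 14.2 CPM (0.54, adjusted p = 1.18e-07).

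Nid1, a nidogen that links laminin to collagen IV, was rare and was not called (log2 fold change -0.22, adjusted p = 0.325). Hspg2, the perlecan gene, had between 0 and 2 reads in each library, and Nid2 between 0 and 1. Sparc also had too few reads for the test, with 47, 15 and 21 in mock and 1, 0 and 1 in p140Cap cells. After scaling, every p140Cap library was below every mock library for Sparc.

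Among 16 receptors of collagens and laminins, 11 were tested, 7 rose and 2 fell (35.2% and 35.9% of all genes tested), with a median of 0.20. The largest increases were those of Itga1, a collagen-binding integrin chain (0.66, adjusted p = 5e-07), Itga6, a laminin-binding chain (0.58, adjusted p = 3.72e-08), and the collagen receptor kinase Ddr1 (0.50, adjusted p = 7.74e-06). That of Itgb1 was small (0.11, adjusted p = 0.0334). Its call was lost with the replicate number as a block, after thinning and without the filter on low counts. The call was also lost without mock or p140Cap replicate 1 or 3 (adjusted p between 0.0695 and 0.163 in all of these, edgeR). Decreases were found for the laminin-binding chains Itga3 (-0.48, adjusted p = 9.04e-07) and Itga7 (-0.91, adjusted p = 0.0216), the latter a rare transcript. Itga7 was not called with DESeq2 (adjusted p = 0.120), without p140Cap replicate 1 (-0.80, adjusted p = 0.0930) or without p140Cap replicate 3 (-0.88, adjusted p = 0.0644), and it was not tested where at least 10 reads were required in every library.

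**Figure D4:**
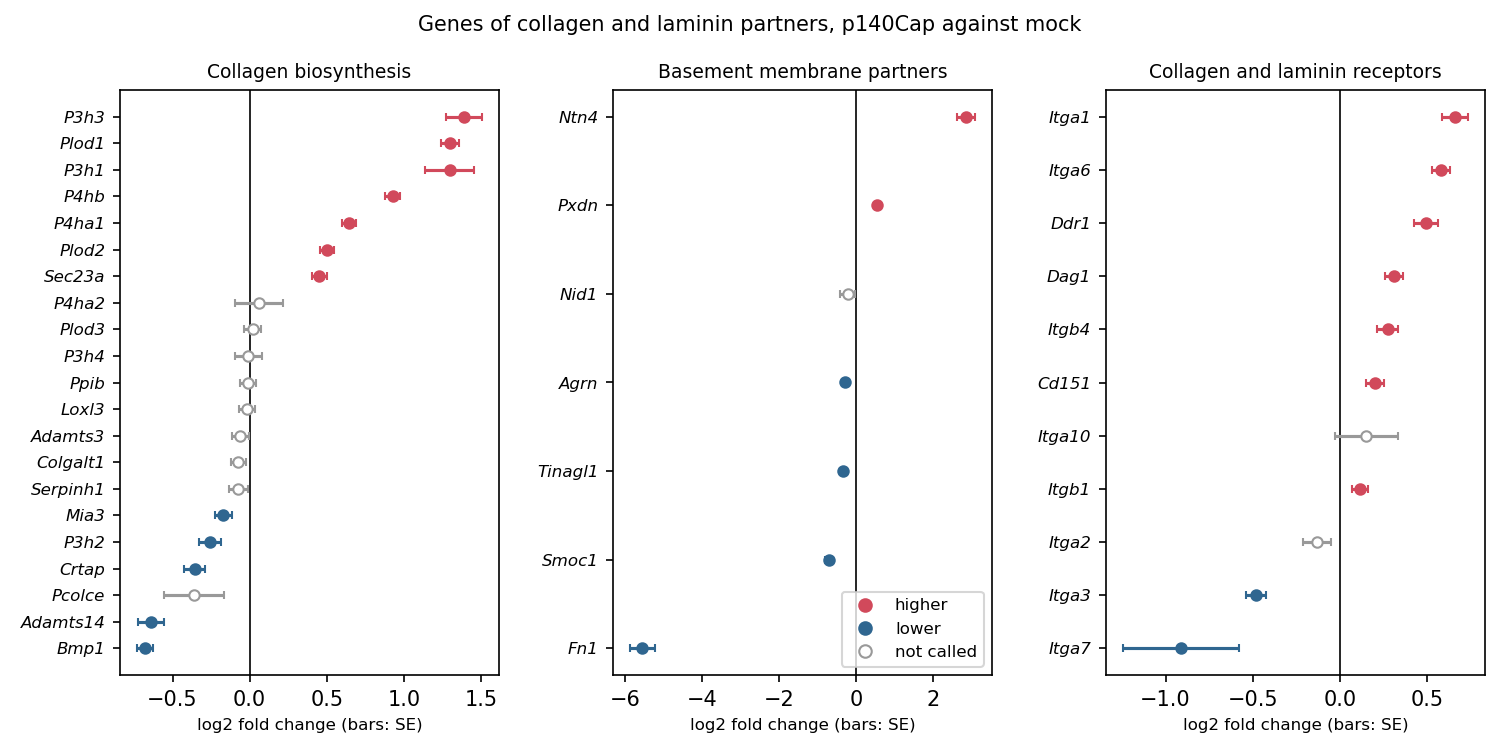
Log2 fold change of p140Cap against mock cells for the tested genes of collagen biosynthesis (21), basement membrane partners (7) and receptors (11), with SE as bars (edgeR, n = 3 libraries each). Filled points passed an adjusted p under 0.05. Fn1 at -5.55 and Ntn4 at 2.85 are the extremes.

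Markers of cell types were read to see which cells the libraries held. Of 9 epithelial markers, 8 were tested, and their summed level was between 6060 and 6577 CPM in mock and between 6711 and 6928 CPM in p140Cap cells. They did not move together. Krt7 (-0.84, adjusted p = 9.45e-10) and Cldn7 (-0.41, adjusted p = 5.78e-06) fell, while Cldn4 (0.49, adjusted p = 1.95e-06), Epcam (0.42, adjusted p = 4.35e-07), Krt18 (0.24, adjusted p = 0.000123) and Cdh1 (0.11, adjusted p = 0.0471) rose. Of 12 fibroblast markers, which include 3 members, 4 were tested. Of the 12, Dcn, Lum, Thy1, Pdpn, Col1a2 and Col3a1 had no read in any library, while Pdgfra was at 7.18 ± 0.688 CPM in mock and 7.67 ± 0.830 CPM in p140Cap cells (SD, n = 3 each) and was not called (0.09, adjusted p = 0.499). The list summed to between 35.1 and 38.9 CPM in mock and between 37.0 and 39.6 CPM in p140Cap cells. Among its tested genes, Postn fell (-1.36, adjusted p = 2.71e-08) and Twist1 rose (0.33, adjusted p = 0.00161).

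Of 9 basal or myoepithelial markers 1 was tested, and their sum stayed between 1.26 and 2.66 CPM over all libraries, with no read for Krt17. Endothelial markers (1 of 7 tested, with no read for Kdr and Cldn5) summed to between 0.270 and 0.553 CPM in mock and between 0.613 and 0.923 CPM in p140Cap cells. Immune markers (1 of 7 tested, with no read for Ptprc, Adgre1 and Cd3e) summed to between 2.16 and 2.37 CPM in mock and between 3.31 and 4.22 CPM in p140Cap cells. The tested gene rose in both lists, Pecam1 (1.25, adjusted p = 0.0133) and Cd68 (0.83, adjusted p = 0.000119). The part of these small sums in the members' changes was not tested.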

How the data were processed

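RNA-Seq of 3 mock and 3 p140Cap libraries of TuBo cells was used. The authors deposited counts, that is, whole numbers of reads per gene and library, with no normalization. The submitters' processing notes name STAR 2.5, RSEM and mm10, with no role given, while the paper names docker4seq and GRCm39. If RSEM made the counts, its estimates were rounded before deposit, and reads of similar genes were then shared by estimation. Library totals were between 13770385 and 75506562.

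Counts were analysed in R 4.3.3 with edgeR 4.0.16 (TMM factors, filterByExpr, quasi-likelihood test, no covariate, 11800 genes tested, Benjamini-Hochberg threshold 0.05). SE was taken from the log2 fold change and the F statistic, as the former over the root of the latter. Per-length levels used the canonical transcript of GENCODE vM39 (GRCm39), by Ensembl identifier, which also gave positions. All 55 members matched. Intervals on pooled reads are 95% exact binomial intervals. The scripts were tested on simulated counts. Replicates had a common biological coefficient of variation of 4.57%. The mean chi-square value between libraries of a group was at least 1.75, where sampling noise gives 1, so no library was a copy of another.

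The members and lists were chosen with earlier results of these data known. Of the members tested, 27 are given with their values, 1 is not reported here but is included in the counts and sums, and from the lists of biosynthesis, partners and receptors the called genes that changed most are named, at most 3 a direction. P4hb, P4ha1, Plod2, Sec23a, Serpinh1, Nid1, Hspg2, Nid2, Sparc, Agrn, Itgb1, Postn, Twist1, Krt7, Cldn7, Epcam, Cldn4, Krt18, Cdh1, Pecam1, Cd68 and Pdgfra were named after their values were seen. Alternatives were DESeq2 1.42.0, RLE factors, 2 other filters on low counts, limma-voom (limma 3.58.1), the omission of single libraries, replicate number as a blocking term, thinning to 13770385 reads and, added after seeing the data, leaving out replicate 2 of both groups and union exon lengths.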

Additional observations from a re-analysis of the deposited data

How the results depend on the processing

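All called members other than Col4a2 kept their direction and stayed called under every alternative that tested them (at least 10 reads in every library left out Col12a1). The count of called members was 20, between 19 and 23 with 1 library left out, 19 with the replicate number as a block and 23 without replicate 2 of both groups. Same-numbered libraries did not deviate together (correlations -0.03, -0.11 and -0.06), so the numbers were not taken to pair them, and the block ended the call of Col4a2 alone among members. Signs changed for uncalled members only. Col4a4 lay between -0.0773 and 0.0450 with 1 library left out and was at 0.151 after thinning, and Col9a2 lay between -0.152 and 0.0403. The median of the collagens, near 0, moved to 0.0862 after thinning and lay between -0.0773 and 0.0449 with 1 library left out. Of the receptors, 1 in place of 2 was called lower with DESeq2 and with at least 10 reads in every library, and between 1 and 2 with 1 library left out, where the lost call was that of Itga7. Itgb1 was not called higher with the block, with thinning, without the filter on low counts and without mock or p140Cap replicate 1 or 3. Partners called lower numbered 5 in place of 4 with DESeq2, without the filter on low counts and with any 1 p140Cap library left out. That number was also 5 without replicate 2 of both groups, and 3 with at least 10 reads in every library, which left out Fn1. The causes were not tested. Per-length ratios in mock cells moved beyond their SD with union exon lengths for all 11 pairs. The lower depth of the p140Cap libraries limits the rare members, of which 17 could not be tested.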

Other observations

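A list of 18 genes of cartilage other than collagens was written after the values of the collagens had been seen. Of these, 16 were in the counts and 6 had enough reads for the test. Sox9, the main transcription factor of cartilage cells, was at 44.5 ± 0.829 CPM in mock and 62.3 ± 1.45 CPM in p140Cap cells (SD, n = 3 each; log2 fold change 0.48, adjusted p = 2.28e-07, edgeR). Its partners went in opposite directions, with Sox5 higher (0.48, adjusted p = 1.37e-06) and Sox6 lower (-0.37, adjusted p = 8.62e-05). Runx2, a factor of bone and late cartilage, rose (0.46, adjusted p = 0.00048). Cytl1, a secreted protein found in cartilage, fell from 101 ± 4.98 CPM to 36.0 ± 2.34 CPM (SD, n = 3 each; -1.49, adjusted p = 4.4e-12).

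Several non-collagen matrix genes of the list were at or near 0. Matn1, Hapln1, Ucma and Epyc had no read in any library, and Acan, which encodes aggrecan, had 1, 2 and 1 reads in mock and 0 reads in each p140Cap library. Comp had 16, 5 and 11 reads in mock and 4, 10 and 7 reads in p140Cap cells. Chad was tested and was not called (0.41, adjusted p = 0.235).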
